A study of Mus musculus with 6 samples.

Results

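Smooth muscle contractile genes were followed in the mouse small intestine over the first days after induced deletion of Fitm2, which encodes FIT2, a protein of the endoplasmic reticulum needed to form lipid droplets. The set was a fixed list of 31 genes for the filaments, anchors, channels and coactivator of smooth muscle. It was chosen with earlier results of these data known, so its counts beside shares of all genes are descriptions and not tests. Each gene was read from its brightest probe set, the one with the highest mean log2 intensity over the 6 arrays, among probe sets annotated with that gene alone. All 31 were measured, out of 18193 genes with such a probe set, and all 31 lay above the threshold for dim genes, which kept 13042 genes.

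The control mice are labelled L/L, and the deletion mice, KO below, are labelled ROSA26CreERT2 L/L, so that KO mice differed from controls by a tamoxifen-activated Cre recombinase placed in the ROSA26 locus, which is active in nearly all cell types. Controls therefore carried no Cre, and the deletion was not restricted to muscle or to epithelium. Both genotypes received tamoxifen at 100 µg per g body weight by intraperitoneal injection on days 1, 2 and 3. The whole small intestine was collected on day 2, 3 or 5. The labels leave unstated which of the later doses the mice of days 2 and 3 were given. RNA was pooled before hybridisation: from 6 L/L and 7 KO mice on day 2, from 6 and 6 on day 3, and from 8 and 7 on day 5. Strain, age and sex are not given in the labels. Each pool gave 1 array, so there was no replicate within a genotype and day, and differences on a single day carry no test. The median probe set intensity of the arrays lay between 57.8 and 59.8. On days 2, 3 and 5, Fitm2 read 193, 223 and 211 in L/L against 123, 127 and 120 in KO, so every KO array was below every L/L array.

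The outer wall of the intestine is an inner circular and an outer longitudinal layer of smooth muscle, with a thin muscularis mucosae and vessel walls holding further smooth muscle. These cells contract when calcium entering the cytoplasm binds calmodulin and activates myosin light chain kinase, so that myosin pulls on actin filaments anchored at dense bodies and at adhesion plaques of the membrane. Most of the genes for this machinery are known targets of serum response factor (SRF), which binds the CArG box, and of its smooth muscle coactivator myocardin, the product of Myocd.

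In brief, most of the 31 genes differed little between KO and L/L on days 2 and 3, and on day 5 most read higher than on the earlier days in both genotypes and higher in KO than in L/L. Values below are array intensities as deposited, on a linear scale, and differences are in log2 intensity. The median KO minus L/L difference over the 31 genes, on the log2 scale, on days 2, 3 and 5 was -0.00, -0.04 and 0.31, against 0.01, -0.01 and 0.02 over the 13042 genes. The median change from day 3 to day 5 was 0.23 within L/L and 0.57 within KO, against -0.03 and -0.01 over the 13042 genes. No single gene of the list passed a test after adjustment in the fits as designed. In whole-tissue RNA, fewer cells of a type and less RNA per cell cannot be told apart, and the same holds for more.

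The promoters that carried a CArG box or a near match are shown first, since that sequence is the shared feature by which many of these genes are known to be controlled. RefSeq windows of 300 bases, from 250 before to 50 after the annotated gene start, were found for 26 of the 31 genes, in 33 windows. Actg2, Myh11, Tagln, Nexn and Myocd had no window. Each sequence below gives the 250 bases before the start in GRCm38.p6, read 5′ to 3′ in the direction of the gene, with the 10-base matches in capitals. They lie at chr19:34255374-34255623 on the minus strand for Acta2, chr2:156775214-156775463 on the plus strand for Myl9, chr14:20929148-20929397 on the plus strand for Vcl, chr14:34588682-34588931 on the minus strand for the first of a pair of Ldb3 starts, and chr7:67759743-67759992 on the minus strand for Synm.
Acta2: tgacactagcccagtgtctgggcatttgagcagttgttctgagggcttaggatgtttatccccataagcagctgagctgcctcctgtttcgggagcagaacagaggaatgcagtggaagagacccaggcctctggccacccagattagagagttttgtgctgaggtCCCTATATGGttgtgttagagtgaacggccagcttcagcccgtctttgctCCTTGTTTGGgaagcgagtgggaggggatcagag
Myl9: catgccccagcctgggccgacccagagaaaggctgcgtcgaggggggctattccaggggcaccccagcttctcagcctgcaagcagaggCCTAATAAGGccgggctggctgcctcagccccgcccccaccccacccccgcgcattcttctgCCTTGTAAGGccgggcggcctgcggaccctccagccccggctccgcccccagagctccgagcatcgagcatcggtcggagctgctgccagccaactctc
Vcl: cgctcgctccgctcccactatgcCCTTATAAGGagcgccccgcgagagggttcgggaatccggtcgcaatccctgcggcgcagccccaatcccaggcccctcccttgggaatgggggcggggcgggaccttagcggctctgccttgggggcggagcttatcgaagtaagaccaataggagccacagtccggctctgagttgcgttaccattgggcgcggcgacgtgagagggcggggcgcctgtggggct
Ldb3: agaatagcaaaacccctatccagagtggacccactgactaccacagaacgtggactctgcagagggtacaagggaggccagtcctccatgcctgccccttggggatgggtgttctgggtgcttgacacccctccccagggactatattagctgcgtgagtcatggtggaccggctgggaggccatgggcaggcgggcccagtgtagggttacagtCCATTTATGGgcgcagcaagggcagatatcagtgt
Synm: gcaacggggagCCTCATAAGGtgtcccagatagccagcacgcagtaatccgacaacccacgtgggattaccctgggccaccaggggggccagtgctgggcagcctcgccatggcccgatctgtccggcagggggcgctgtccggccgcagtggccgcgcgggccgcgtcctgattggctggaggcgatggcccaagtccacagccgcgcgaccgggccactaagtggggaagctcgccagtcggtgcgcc

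The motif searched on both strands was CC, then 6 bases that are each A or T, then GG. An exact CArG box was found in 3 of the 26 genes (11.5%), Ldb3, Myl9 and Vcl, and in 1.63% of all 32851 windows, or 1.81% of 27025 genes. In Myl9 the box CCTAATAAGG began at -161 from the start, in Vcl CCTTATAAGG began at -227, and in Ldb3 CCATTTATGG began at -35. When 1 G or C was allowed in the 6-base core, which includes the exact boxes, Acta2 and Synm were added, giving 5 of 26 genes (19.2%) against 11.3% of all genes. Acta2, which encodes smooth muscle alpha-actin, held 2 such matches, CCCTATATGG at -84 and CCTTGTTTGG at -34, Synm held CCTCATAAGG at -239, and Myl9 held a further CCTTGTAAGG at -99. The letters CATTCC, the motif known for TEAD factors, were found on either strand in 10 of 26 genes (38.5%) against 16.6% of all genes. These are matches of letters in a short window and no evidence of binding. The genes with an exact box had different day 5 values: KO minus L/L was 0.37 for Myl9, 0.10 for Vcl and -0.42 for Ldb3.

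The actin isoforms differed between days more than between genotypes. On days 2, 3 and 5, the order of all values below, Acta2 read 6717, 6754 and 8014 in L/L against 6523, 6241 and 8648 in KO. Actg2, the gamma-actin of visceral smooth muscle, read 4281, 4583 and 6230.4 in L/L against 4349.7, 4151 and 6529.6 in KO. For both genes the pair of day 5 arrays lay above the 4 earlier arrays. On day 5 Actg2 was 1.36-fold its day 3 level in L/L and 1.57-fold in KO, while KO stood only 1.05-fold above L/L. Acta2 was 1.19-fold and 1.39-fold its day 3 level, and KO stood 1.08-fold above L/L.

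Among the myosin genes, Myh11, the heavy chain that defines differentiated smooth muscle, read 3072, 3020.1 and 4094 in L/L against 3064, 3050.2 and 4928 in KO. Its 4 early arrays lay within a narrow band, and the day 5 arrays stood above it, KO the higher by 0.27 on the log2 scale. Mylk, the light chain kinase, read 6108, 5781 and 7477 in L/L against 5856, 5543 and 7723 in KO, which is a day difference with almost none between genotypes on day 5 (0.05). Myl9, the regulatory light chain, read otherwise, at 4338, 4527 and 4459 in L/L against 4345, 4565 and 5782 in KO, so that the KO day 5 array alone stood apart. Ppp1r12b, a targeting subunit of the phosphatase that reverses the kinase, read 317, 333 and 389.9 in L/L against 307, 317 and 503 in KO, again highest in KO on day 5, with L/L day 5 next.

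In all 7 thin-filament genes both day 5 arrays were above the earlier ones, though for Smtn L/L read 529 on day 3 and on day 5. Tagln, or transgelin, an actin-binding protein long used as a marker of the lineage, read 4449.9, 4318 and 5055 in L/L against 4453, 4471 and 6834 in KO. Cald1 (caldesmon), which holds back the myosin ATPase, read 2331, 2412 and 2939.6 in L/L against 2406, 2312 and 4146 in KO. The KO day 5 array was the highest for both genes, by 0.43 over L/L for Tagln and 0.50 for Cald1. Lmod1, a leiomodin that starts actin filaments, read 114, 124 and 148 in L/L against 122, 115 and 203 in KO, a day 5 difference of 0.46. The remaining thin-filament genes differed little by genotype on day 5: Cnn1 (calponin) by 0.18, Smtn (smoothelin) by 0.18, and the tropomyosins Tpm1 and Tpm2 by 0.09 and 0.13. Tpm2 nevertheless went from 7219 on day 3 to 9151 on day 5 in L/L and from 6721 to 9997 in KO.

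Genes for intermediate filaments and dense bodies included Synm, which had the largest day difference of the list. Synm, whose product synemin joins desmin filaments to other structures, read 628, 744 and 1609 in L/L against 607, 553 and 1668 in KO. The day 5 arrays were 2.16-fold the day 3 array in L/L and 3.02-fold in KO, and differed from each other by only 0.05 on the log2 scale, whereas on day 3 KO was below L/L by 0.43, the lowest KO minus L/L difference of the list on that day. Synpo2, a synaptopodin that binds alpha-actinin, read 637, 711 and 1017 in L/L against 634, 627 and 1337 in KO, and Des, desmin itself, read 1498, 1580.4 and 2034 in L/L against 1582, 1563 and 2832 in KO. On day 5 KO was above L/L by 0.39 for Synpo2 and 0.48 for Des, and on day 3 the differences were -0.18 and -0.02. Flna, filamin A, which cross-links actin, read 1117, 1166 and 1491 in L/L against 1130.2, 1169.8 and 2189 in KO, a day 5 difference of 0.55.

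Csrp1, a LIM protein that binds alpha-actinin, was flat in L/L at 2060.4, 2064 and 2031, and read 2079, 2065 and 2924 in KO. Actn1, alpha-actinin itself, read 938, 954 and 1049 in L/L against 971, 931 and 1458 in KO. For both the KO day 5 array stood above the other 5, and the 5 others lay close together. Nexn, or nexilin, another actin-binding protein, was dim, at 80.2 to 95.8 in the other 5 arrays and 118 in KO day 5.

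Ldb3 (ZASP), a PDZ and LIM protein of the Z-disc, went against the rest. It read 1001, 894 and 1082 in L/L against 1053, 676 and 811 in KO, so that KO was higher on day 2 by 0.07 and lower on days 3 and 5 by 0.40 and 0.42. It was the gene of the list with the lowest KO value relative to L/L on day 5, and the only one at least 1.5-fold lower on day 3 than on day 2 within KO (0.445% of the 13042 genes were). On day 5 its other probe sets differed by -0.10 and 0.08, so the size of that difference was not seen elsewhere in the gene.

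At the membrane, Pgm5, a phosphoglucomutase relative found at adhesion plaques, read 369, 343 and 371 in L/L against 369, 334 and 582 in KO. The L/L day 5 array lay barely above the early ones, and KO day 5 was 1.57-fold L/L. Npnt, nephronectin, a matrix ligand of integrin alpha-8, read 411, 406 and 365 in L/L against 450.0, 500.5 and 571 in KO, with every KO array above every L/L array and a day 5 ratio of 1.56. It was the only gene of the list whose genotype difference was already above 0.1 on day 2 and larger on each later day: 0.13, 0.30 and 0.64. Itga8, the receptor subunit for nephronectin, read 141, 138 and 116 in L/L against 136, 139.8 and 143 in KO, so its day 5 difference of 0.30 came with a low L/L day 5 array. Cav1, the main protein of caveolae, and Vcl, vinculin, differed on day 5 by 0.31 and 0.10.

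Of the ion-handling genes, Pln showed the largest genotype difference of the list. Pln encodes phospholamban, which restrains the calcium pump of the sarcoplasmic reticulum. It read 142, 132 and 145 in L/L against 139.7, 139.8 and 262 in KO, a ratio of 1.8 on day 5 with the other 5 arrays close together. Mrvi1 (IRAG), a target of cGMP-dependent kinase on the stores, read 206, 212 and 269.7 in L/L against 232, 212 and 362 in KO. Kcnmb1 and Kcnma1, which form the large-conductance potassium channel that opposes contraction, were dim and level, at 55.5 to 59.9 and 85.7 to 99.8. Myocd, the coactivator, was low but differed between days, from 78.5 on day 3 to 127 on day 5 in L/L and from 79.1 to 179 in KO, which is 1.61-fold and 2.26-fold.

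**Figure D1:**
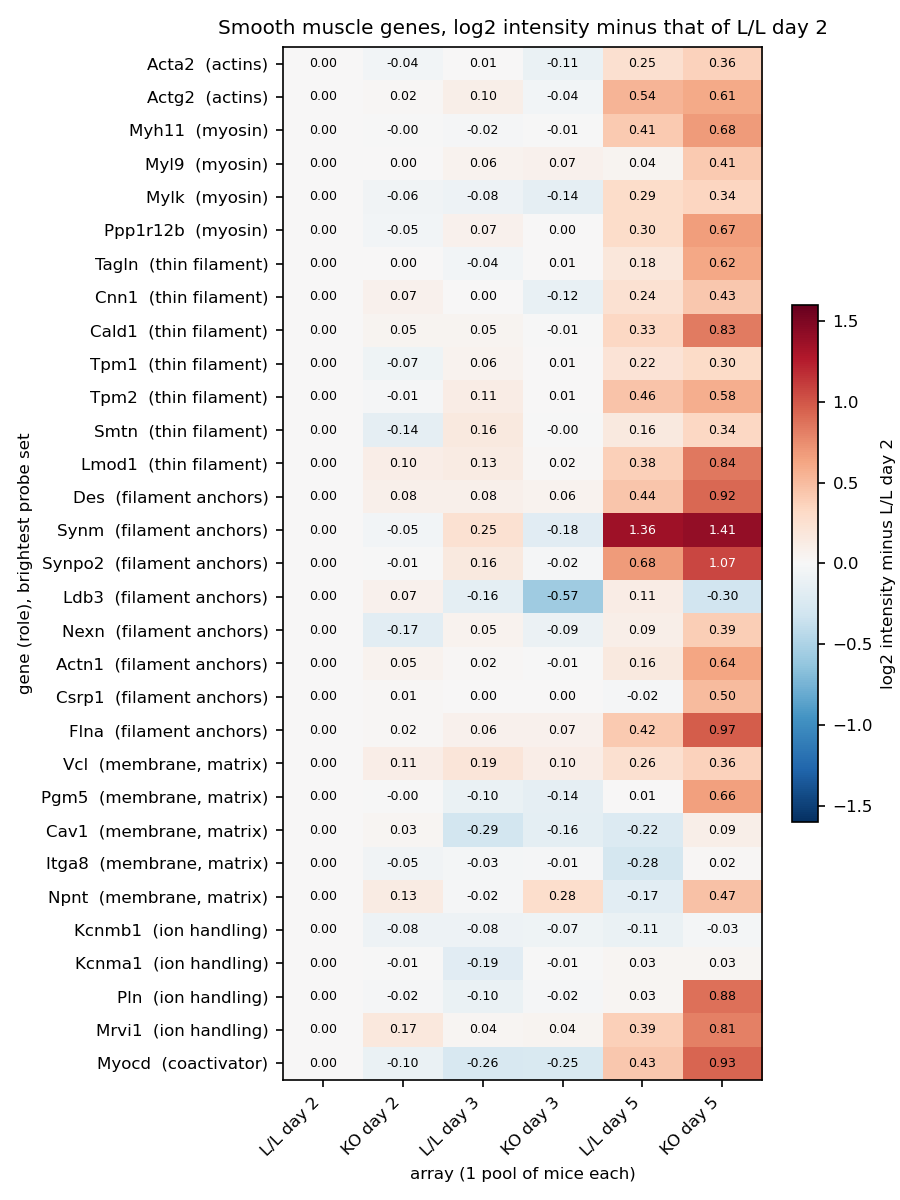
Log2 intensity of the 31 genes (rows, grouped by role) in the 6 arrays (columns, 1 pool of mice each), minus that of the same gene in the L/L day 2 array; colour and printed value give the difference. The KO day 5 array is the highest for 28 genes and both day 5 arrays are above the others for 24, while Ldb3 is lower in KO than in L/L on days 3 and 5.

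By count, the genotype difference on day 5 was broad and small. KO exceeded L/L in 29 of 31 genes, where 54% of the 13042 genes did, with Ldb3 and Kcnma1 (-0.00) as the others. Only Npnt, Pgm5 and Pln were at least 1.5-fold higher in KO, where 5.19% of the 13042 genes were, so 3 of 31 is not far from the background. None was at least 1.5-fold lower (3.1% of all genes) and none reached 2-fold higher (1.28%). On day 2, 15 genes were above 0 (55.5% of all genes) and none reached 1.5-fold in either direction (0.429% higher and 0.107% lower among all genes). On day 3, 13 were above 0 (47.5%) and again none reached 1.5-fold (1.1% and 0.506%). On day 5, KO minus L/L ran from -0.42 for Ldb3 to 0.85 for Pln. Acta2, Actg2, Mylk, Tpm1 and Tpm2 lay between 0 and 0.2. The 15 brighter genes had a median day 5 difference of 0.27 and the other 16 one of 0.38. With all probe sets of a gene averaged, the median day 5 difference of the list was 0.20.

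**Figure D2:**
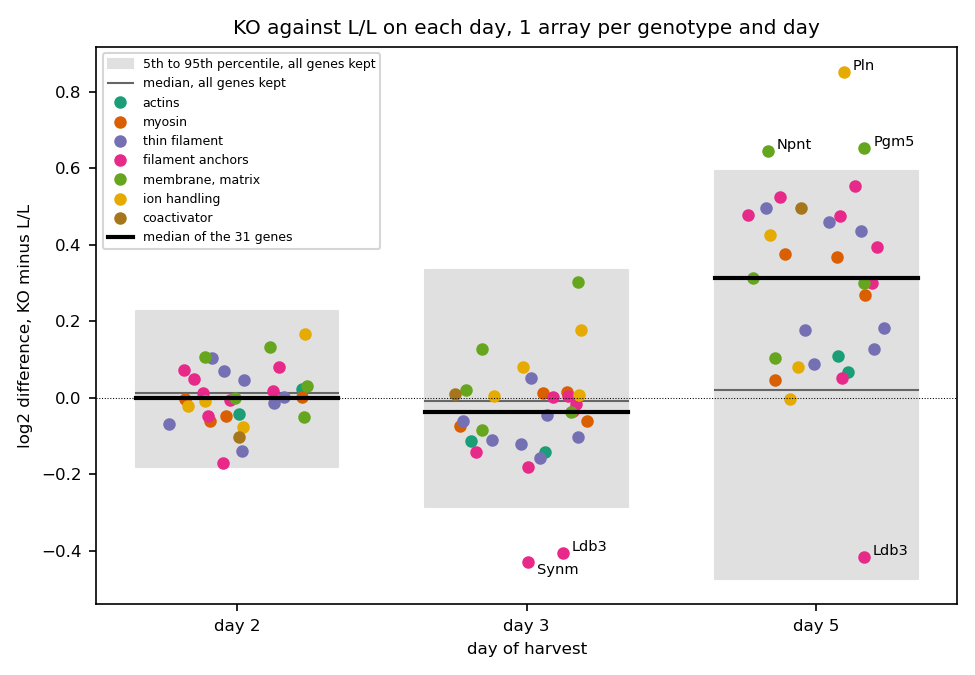
KO minus L/L difference in log2 intensity for each of the 31 genes on days 2, 3 and 5, 1 point per gene coloured by role, with a thick line at their median, a thin line at the median of all 13042 genes and a grey box from the 5th to the 95th percentile of all genes. Points centre on 0 on days 2 and 3 and on 0.31 on day 5, with Pln at 0.85 and Ldb3 at -0.42 as the extremes.

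Whether KO differed from L/L over all 3 days was tested in limma with day as a factor. No gene of the list passed after adjustment over the 13042 genes, of which 0.023% were called with KO higher and 0% with KO lower. Npnt alone had an unadjusted p under 0.05, where 7.68% of all genes did with KO higher and 4.61% with KO lower. Its mean difference was 0.36 with an SD of 0.26 over the 3 days and a standard error of 0.11 (limma, adjusted p = 0.381). KO was higher on all 3 days in 7 genes (Cav1, Csrp1, Flna, Mrvi1, Myl9, Npnt and Tagln), a share close to the 22.1% of all genes. Every KO array lay above every L/L array for Npnt and Csrp1, where 7.48% of all genes did so, though Csrp1's day 2 and day 3 differences were only 0.01 and 0.00.

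Whether the difference grew with day was tested by a term for genotype times day. No gene of the list passed in limma after adjustment, where 0.644% of all genes were called with KO growing higher and 0.583% with KO growing lower. At an unadjusted p under 0.05, 14 of 31 genes were called with KO growing higher, against 10.6% of all genes, and none with KO growing lower, against 7.87%. Pln came nearest, with a slope of 0.30 per day, a standard error of 0.05 and an adjusted p of 0.0733 in limma. Under some alternatives in limma, Pln reached an adjusted p of 0.0269 with an offset of 32 before log2 and 0.0334 with the trend setting of eBayes. It reached 0.0419 with a stricter filter and 0.0478 with arrays centred on their medians. Pln did not pass with the mean of all probe sets, without probe sets that can bind several transcripts or without a filter. Nor did it pass with cyclic loess, the robust setting or the rank of the day. The other genes with the lowest adjusted p in limma were Myocd (0.21 per day, 0.114), Pgm5 (0.24 per day, 0.131), Npnt (0.17 per day, 0.143) and Flna (0.19 per day, 0.154). For Pln, Pgm5, Flna and Csrp1 the differences of days 2 and 3 lay between -0.04 and 0.08 and that of day 5 stood apart, so they did not lie on a straight line with day. Tested as day 5 against the mean of days 2 and 3, the adjusted p of Pln was 0.0968.

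The contractile genes were also compared between days within a genotype. Within L/L, 26 of the 31 genes were higher on day 5 than on day 3, where 42.1% of all genes were. Myocd and Synm were at least 1.5-fold higher, where 0.552% of all genes were. Within L/L none changed by 1.5-fold upwards from day 2 to day 3 (0.882% of all genes), and Synm and Synpo2 were the genes past it from day 2 to day 5 (1.15%). Within KO all 31 were higher on day 5 than on day 3 (47.4% of all genes), 15 of them by at least 1.5-fold (2.95%) and Myocd, Synm and Synpo2 by at least 2-fold (0.452%). The change from day 3 to day 5 was larger in KO than in L/L in 29 genes, where it was larger in 55.4% of all genes. That count uses the same 4 arrays as the separate counts for the genotypes.

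**Figure D3:**
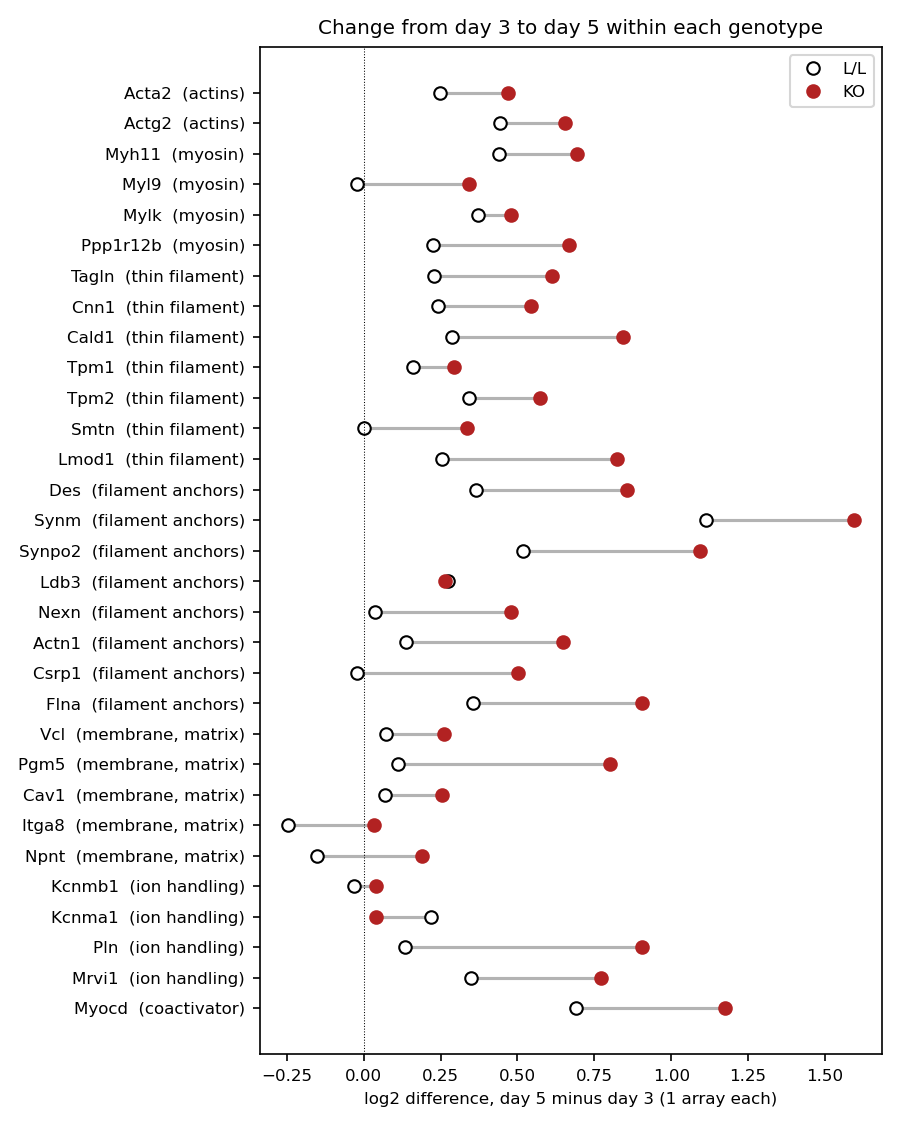
Change in log2 intensity from day 3 to day 5 for each of the 31 genes (rows), within L/L (open points) and within KO (filled points), 1 array per genotype and day. The KO point lies to the right of the L/L point in 29 genes, and Synm, at 1.11 and 1.59, lies farthest right.

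Across the arrays, both day 5 arrays stood above all 4 earlier arrays in 24 of the 31 genes, where 11.4% of all genes did so. For some of these, such as Smtn, Pgm5 and Kcnma1, the margin was very small. The KO day 5 array was the highest of the 6 in 28 genes, against 27% of all genes, and the L/L day 5 array in Ldb3 and Kcnma1, against 15.3%. For Kcnmb1 the highest array was L/L day 2. When both genotypes were fitted together in limma, none of the 13042 genes (0%) passed after adjustment for the change from day 3 to day 5, and 18 of 31 genes of the list had an unadjusted p under 0.05 with day 5 higher, where 6.13% of all genes did. None was lower, where 10.9% of all genes were. Synm changed by 1.35 on the log2 scale (standard error 0.13, limma, adjusted p = 0.183), Myocd by 0.93 (0.16, adjusted p = 0.184) and Actg2 by 0.55 (0.09, adjusted p = 0.184). The median over the list was 0.42 in that fit, 0.23 without the KO day 5 array and 0.55 without the L/L day 5 array. Without the L/L day 5 array, so that day 5 rests on KO alone, 871 genes were called in all and 19 of the list, and without the KO day 5 array the list had no call. From day 2 to day 5, 20 genes of the list had an unadjusted p under 0.05 with day 5 higher, against 11.1% of all genes, and from day 2 to day 3 none, against 6.66%, with Ldb3 lower, against 3.11%.

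Other probe sets of the same genes gave a check that the choice of the brightest had not used. The 31 genes had 74 probe sets, 63 of them above the threshold, and 18 genes had more than 1 above it. Among the 32 other probe sets of these 18 genes, 22 had KO above L/L on day 5 (median 0.09), where 54% of all genes did. From day 3 to day 5, 26 of the 32 were higher in L/L (median 0.24) and 27 in KO (median 0.46). Of all genes, 42.1% and 47.4% were. These shares, like the 54%, are from the brightest probe set of each gene, so they are not a like background. Several of the 32 belong to the same gene, so they are not independent. Their medians cover 18 genes and those of the brightest probe sets all 31, so the sizes were not compared on the same genes. The sign of the brightest probe set was shared by 21 of the 32 for the genotype difference on day 5. It was shared by 24 for the day change in L/L and by 27 for that in KO.

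Pln was the clearest case of probe sets that read alike. Its second probe set read 88.3, 79.4 and 83.9 in L/L against 83.7, 76.0 and 152.5 in KO, and the day 5 differences of its 3 probe sets were 0.85, 0.86 and 0.99. All 5 Npnt probe sets had KO above L/L on day 5, by 0.29 to 0.83. The pair for Csrp1 gave 0.53 and 0.53, and Cald1 gave 0.50, 0.30 and 0.44. The pair for Synm differed by 0.05 and 0.07 between genotypes on day 5, by -0.43 and -0.25 on day 3, and by 1.11 and 0.51 between days 3 and 5 in L/L.

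Elsewhere the probe sets of 1 gene parted. Actn1 gave 0.47 on its brightest probe set and -0.02 and 0.08 on the others. Myh11 gave 0.27 and -0.08, Synpo2 gave 0.39, -0.05, 0.13 and -0.04, and Kcnma1 gave -0.00 and 0.41. Of Tpm2, the 2 bright probe sets gave 0.13 and 0.21 and a dim one gave -0.87. The dimmer Synpo2 probe sets lay near the threshold, at mean log2 values of 5.91 and below, against 9.63 for the brightest.

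**Figure D4:**
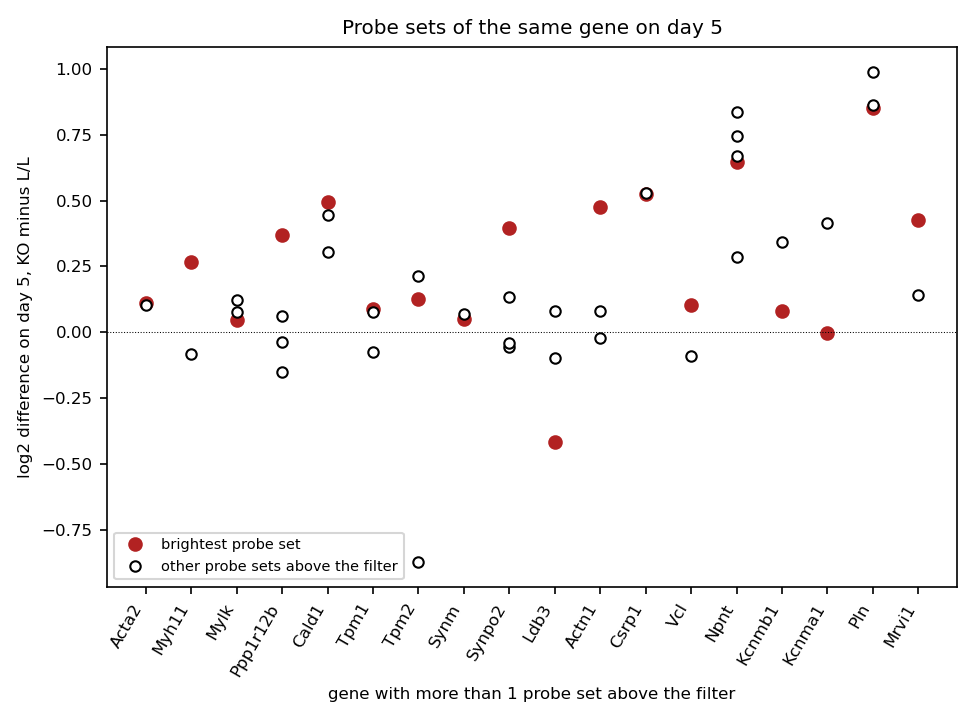
KO minus L/L difference in log2 intensity on day 5 for each probe set above the threshold, for the 18 genes with more than 1, with the brightest probe set marked apart from the others. All probe sets of Pln, Npnt, Csrp1 and Cald1 lie above 0, and those of Actn1, Tpm2, Ppp1r12b and Ldb3 lie on both sides of it.

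The wider pathway was read from 4 lists of other genes, 59 measured of 67 written. None passed for the slope in limma after adjustment (0.644% and 0.583% of all genes), and 13 had an unadjusted p under 0.05 with KO growing higher and 1 with KO growing lower (10.6% and 7.87% of all genes). On day 5 KO was above L/L in 45 of 59 (54% of all genes), with a median of 0.20, and 25 of 59 had both day 5 arrays above the earlier ones (11.4%). From day 3 to day 5 in L/L the median was 0.08.

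Among SRF and its partner factors, values went in both directions. Over the 11 measured the median was 0.10 for KO minus L/L on day 5 and -0.01 for day 5 minus day 3 in L/L, and Srf differed by 0.09 on day 5. The largest day 5 differences among them were Foxf1 (0.72) and Foxf2 (0.52), forkhead factors of the gut mesenchyme, Gata4 (-0.52), a factor known in gut epithelium, and Tead1 (0.39). None passed the test over the 3 days.

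Of the genes for contraction signalling, 10 of 14 were measured, with medians of 0.15 for KO minus L/L on day 5 and 0.24 for day 5 minus day 3 in L/L. The largest day difference in L/L was that of Prkg1, the cGMP-dependent kinase that relaxes smooth muscle, at 0.62, and the largest differences between genotypes on day 5 were those of Gucy1a1 and Gucy1b1, the subunits of the nitric oxide receptor that makes cGMP, at 0.78 and 0.57, followed by Ppp1r14a, an inhibitor of myosin phosphatase, at 0.37. For calcium entry and stores, 12 of 14 were measured, with medians of 0.31 and 0.07. Kcnj8 and Abcc9, the channel and regulator subunits of the ATP-sensitive potassium channel of smooth muscle and pericytes, had the largest day 5 differences, 1.08 and 0.97. Ryr2, a calcium release channel, followed at 0.58, but lay near the threshold at a mean log2 of 5.34 and differed by 0.73 on day 3. Of further contractile and adhesion proteins, 26 of 28 were measured, with medians of 0.26 and 0.11. They were led on day 5 by Filip1l (0.74), Itga5, a fibronectin receptor subunit (0.73), Mustn1 (0.69) and the brain-type creatine kinase Ckb (0.61). Itga5 was dim, at a mean log2 of 5.55.

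Markers of other cells of the gut wall also read higher in KO on day 5, and their part in the values of the contractile genes was not tested. KO exceeded L/L on day 5 in 13 of 14 fibroblast and matrix genes (median 0.49), 11 of 12 endothelial genes (0.55), 4 of 5 pericyte genes (0.32), 6 of 6 mesothelial genes (0.67), 9 of 10 myeloid genes (0.92), 5 of 5 adipocyte genes (0.58) and all 4 measured genes of interstitial cells of Cajal (0.39), where 54% of all genes did. The largest fibroblast value was that of Pdgfra, at 1.34. Among the genes of interstitial cells of Cajal, Kit was level (0.00), and Prkcq, Ano1 and Gja1 differed by 0.24, 0.54 and 0.56. For enteric neurons and glia, KO exceeded L/L in 12 of 16 genes (median 0.12), and for enterocytes in 10 of 13 (0.04). None of these genes passed the slope test after adjustment, except Wt1 and Lrrn4 of mesothelium and Lyz2 and Cd68 of myeloid cells, all with KO growing higher.

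In L/L the lists differed in their change from day 3 to day 5, and pericytes lay nearest the contractile genes. From day 3 to day 5 in L/L the median was 0.23 for the contractile genes, 0.17 for pericytes, 0.07 for fibroblasts, 0.06 for interstitial cells of Cajal, 0.05 for neurons and glia, -0.06 for enterocytes, -0.15 for endothelium, -0.21 for adipocytes, -0.25 for myeloid cells and -0.57 for mesothelium. Both day 5 arrays stood above the earlier arrays in 24 of 31 contractile genes, against 11.4% of all genes. The count was 3 of 5 for pericytes, 7 of 14 for fibroblasts and 2 of 4 for interstitial cells of Cajal. For enterocytes it was 3 of 13, and for neurons and glia 2 of 16. None of the 12 endothelial, 10 myeloid, 6 mesothelial or 5 adipocyte genes had both day 5 arrays above the earlier ones. The mean log2 intensity of the contractile genes was 9.65, 9.66 and 9.89 in L/L against 9.66, 9.61 and 10.20 in KO, that of the fibroblast genes 10.11, 9.95 and 10.04 in L/L against 10.14, 10.10 and 10.52 in KO, and that of the endothelial genes 7.23, 7.13 and 6.99 in L/L against 7.35, 7.41 and 7.45 in KO. Of markers of skeletal and cardiac muscle only 6 of 15 lay above the threshold, with a median KO minus L/L difference of -0.04 on day 5, and their mean log2 intensity was 6.72, 6.56 and 6.71 in L/L against 6.68, 6.58 and 6.73 in KO.

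**Figure D5:**
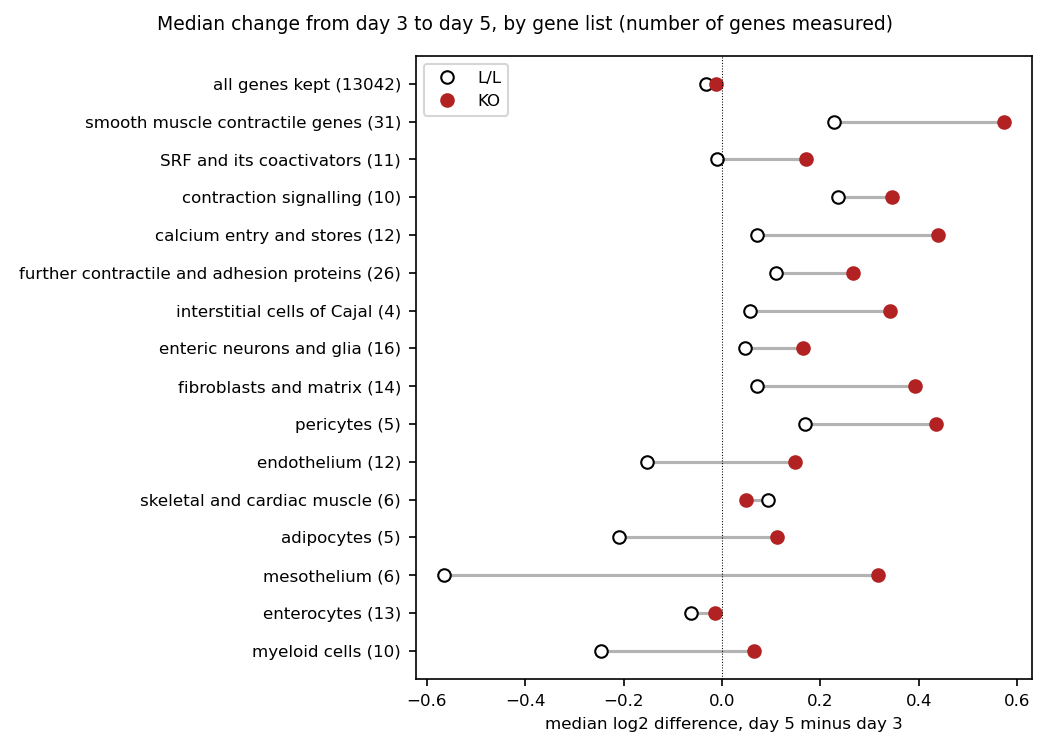
Median change in log2 intensity from day 3 to day 5 for each gene list, within L/L (open points) and within KO (filled points), with the number of genes measured beside each name. The contractile genes have medians of 0.23 and 0.57, and the mesothelial list has -0.57 in L/L and 0.32 in KO.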

How the data were processed

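The deposited table gave, for each of 45101 probe sets, 1 processed intensity per array on a linear scale. The submitters' processing notes name Partek and RMA, with no versions or order, and per the labels each array held pooled RNA. How arrays were made comparable is not stated in the labels or headers. From these intensities log2 was taken with no pseudocount and no further normalization. Each gene was read from its brightest probe set with that gene alone, with symbols updated through gene IDs to GRCm38.p6. Genes were kept when their mean log2 lay above the 40th percentile of probe sets (log2 5.28, an intensity of 38.9).

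Tests used limma 3.58.1 in R 4.3.3 (lmFit and eBayes, two-sided, Benjamini-Hochberg at 0.05) over all 6 arrays. The genotype fit had day as a factor, with 2 residual degrees of freedom and a prior of 3.03, and also gave the day contrasts. The slope fit added genotype times centred day, with 1 residual degree of freedom and a prior of 4.76. The p-values of the genotype fit and its day contrasts rest on how far the KO minus L/L difference varied between days. A difference confined to day 5 thus adds to the error of that fit. Where 1 day 5 array was left out, only days 2 and 3 set the error. All p-values rest on these single pools and do not measure the spread between repeat pools. Fits were also run on simulated arrays with independent noise and changes larger than any KO minus L/L difference of the list. That run does not measure error between these pools or at the sizes reported here. Folds of 1.5 describe single days. The genes and lists were chosen with earlier results of these data known. All genes of the list are named, all their probe sets were read, and from other lists up to 4 genes with the largest size of the printed quantity are named, besides those past a threshold and Srf. Promoter windows came from RefSeq.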

Additional observations from a re-analysis of the deposited data

How the results depend on the processing

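Each result was recomputed with the mean of all probe sets, without probe sets that can bind several transcripts, with other filters, an offset of 32, cyclic loess, centring on the median, the robust and trend settings, without each day and with other codings of day. Of the list, 30 genes were measured with the mean, and 29 with a filter at the 60th percentile. Without probe sets that can bind several transcripts 26 were measured, and the brightest probe sets of Acta2, Actg2 and Tpm2, among others, are of that kind. Genes that dropped out gave no value there. Of the results for whole comparisons, counts and medians alike, 297 values stayed close to the main value and 37 moved. For medians, closeness was judged against a residual SD of 0.128 on the log2 scale. These labels did not record direction, so a median near 0 could change sign and still count as close. Of 2950 values for single genes, 132 changed sign, and 1 past the threshold was turned, the slope of Tpm2 at -0.42 (adjusted p = 0.0391, limma) from a dim probe set.

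Genes called over the 3 days, 3 in all, became 1 with the mean of probe sets, 1 without day 2, 0 without day 3 and 6 with a linear day term. The 160 calls for the slope became 0 without a filter, 275 with a filter at the 60th percentile, 550 with the offset, 321 with centring, 531 with the trend, 0 for day 5 against days 2 and 3, and 63 with the rank of the day. The list had 1 slope call in place of 0 with the 60th percentile filter, the offset, centring and the trend (Pln each time), and 1 without probe sets that bind several transcripts (Tpm2). The F test for day, with 0 calls, gave 2 without day 5.

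The alternatives without 1 day 5 array were added after the data were seen. Without the KO day 5 array the F test made 1 call, the list's median was 0.23 for day 5 minus day 3 and 0.21 for day 5 minus day 2 (0.35 with both arrays), and the latter contrast made 1 call. Without the L/L day 5 array the F test made 883 calls, 15 of them in the list, day 5 minus day 3 made 871 and 19 with a median of 0.55, and day 5 minus day 2 made 1672 and 21 with a median of 0.61.

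Genes of the list 1.5-fold higher from day 3 to day 5 in L/L, 2 in all, became 1 with the mean of probe sets, 1 with the offset and 1 at 2-fold. The 1 gene lower from day 2 to day 3 in KO became 0 with the mean of probe sets and 0 at 2-fold. On day 5, KO against L/L gave 1 gene lower in place of 0 without probe sets that bind several transcripts, and 0 higher in place of 3 at 2-fold. The 15 genes higher from day 3 to day 5 in KO became 3 at 2-fold.

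The labels carry no replicate numbers, so no replicate block was fitted beyond day. With day as a factor, the fits compared KO with L/L within each day, except the alternatives without a day term or with a linear one. Each group is 1 pool, so the spread between mice was not measured, and the number of arrays limits the precision. Dim genes such as Kcnmb1, Kcnma1 and Nexn lie nearer the background than the rest.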
